A study of Mus musculus with 2 samples.

Results

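The 10 genes described here carry ammonia nitrogen through the liver. They were chosen by name as rows of the deposited single-cell count table, which lists 31053 genes, and all 10 were found. Cps1, Otc, Ass1, Asl and Arg1 encode the enzymes of the urea cycle, Nags makes the activator of Cps1, and Slc25a15 carries ornithine into mitochondria. Glul encodes glutamine synthetase, Gls2 the liver glutaminase and Oat ornithine aminotransferase.

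In the liver lobule, hepatocytes near the portal vein take up most of the ammonia that reaches the organ and turn it into urea, with glutaminase supplying part of that ammonia. A thin sleeve of hepatocytes around the central vein lacks most of this machinery and instead contains glutamine synthetase, which traps the ammonia that escaped, and ornithine aminotransferase, which supplies glutamate. Periportal and pericentral cells are therefore told apart by these genes, and beta-catenin signalling is the best known determinant of the pericentral side.

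Perfused livers of C57BL/6 mice were profiled by droplet-based RNA-seq in 1 library of genotype LaptTA;WT (control) and 1 library of genotype LaptTA; tetYAP (tetYAP 4W). Both carry a tetracycline transactivator under the LAP promoter, which is active in hepatocytes, and the tetYAP mouse also carries a tetracycline-responsive transgene for a constitutively active YAP. Doxycycline in the food keeps the transgene off, and for activation mice 4 weeks of age were moved to a regular diet, here for 4 weeks. The labels call the cells hepatocytes, give neither the number of pooled animals nor the age of the control, and name more than 1 version of the reagent kit, of which the study's methods give a single one for perfused liver.

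The control library held 2989 barcodes with a median of 3117 UMIs (unique molecular identifiers, each standing for 1 captured transcript) and the tetYAP 4W library 1524 barcodes with a median of 4150 UMIs. No barcode sequence was shared between them. The libraries also differed in sex-linked transcripts, with 3 and 4859 UMIs of Xist and with 716 and 0 UMIs of 4 Y-linked genes in the control and tetYAP 4W libraries. Yap1, the gene of which the transgene carries a mutant form, was at 16.3 CPM (155 UMIs) and 18.9 CPM (128 UMIs) over all barcodes, where CPM stands for UMIs of the gene per 1000000 UMIs of the set, and the sources do not state whether the transgene transcript was counted under it. Genotype, sex and library cannot be told apart, no test between the groups was possible, and the 95% intervals given throughout hold counting error and nothing else. The term higher or lower past 2-fold stands for a point estimate beyond that ratio and not for a test.

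Clusters that held hepatocyte markers, with fewer than 3 markers of any other cell type raised 3-fold, were called hepatocyte-like. They took 2544 control barcodes (85.1%) and 824 tetYAP 4W barcodes (54.1%), with medians of 1 and 6 marker UMIs of other cell types. No hepatocyte-like cluster mixed the libraries. Hepatocyte markers alone did not single these barcodes out, because T or NK, B and erythroid cell-like barcodes held nearly as many of their UMIs, with medians of 338 against 322 in the control library and 293.5 against 352 in the tetYAP 4W library. The latter 3 classes, 20 control and 216 tetYAP 4W barcodes at median depths of 4048.5 and 4285 UMIs, should lack the urea cycle and serve below as the measure of free RNA. Whether they hold Glul, Gls2 or Oat transcripts of their own was not tested.

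Malat1, a long RNA kept in the nucleus, was used to part the hepatocyte-like barcodes further, into clusters at least 3-fold above the poorest hepatocyte-like cluster of their library and the rest. The Malat1-rich clusters comprised 122 control and 348 tetYAP 4W barcodes, with 44.7 and 46.6 Malat1 UMIs per 10000. Of the 348, a cluster of 270 barcodes lay just above that limit at 16.5 Malat1 UMIs per 10000, the only tetYAP 4W hepatocyte-like cluster below it having 4.96, and had a median of 10 marker UMIs of other cell types, against 0 in the Malat1-rich control barcodes. The remaining 78, at 141 Malat1 UMIs per 10000, form the Malat1-richest set, and their values are given beside those of the whole Malat1-rich set. The 2422 control and 476 tetYAP 4W Malat1-poor barcodes had 5.76 and 4.96 Malat1 UMIs per 10000 and median mitochondrial shares of 28.1% and 61.0%. Median hepatocyte marker UMIs were 166.5 in Malat1-rich and 324 in Malat1-poor control barcodes. In the tetYAP 4W library they were 311 and 369, so the Malat1-rich sets of the libraries were unlike in this content. In the 476, the leading genes by fold were pancreatic digestive enzymes, at 0.370 UMIs per barcode, so that set is called here by its Malat1 level and not as a cell type.

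Cps1, the entry enzyme of the cycle, was the only one of the 7 urea cycle genes whose level in Malat1-rich control barcodes stood above free RNA beyond counting error. It had 689 UMIs in the 122 barcodes, or 1835 CPM, against 725 CPM in the Malat1-poor control barcodes and 599 CPM (50 UMIs) in the lymphoid and erythroid cell-like ones. The log2 ratio to the latter was 1.62 (1.2 to 2.06) for the Malat1-rich and 0.28 (-0.13 to 0.71) for the Malat1-poor barcodes. A Cps1 UMI was nevertheless present in 95% of the lymphoid and erythroid cell-like barcodes and in 88.5% of the Malat1-rich ones, so presence of the transcript did not separate them. After each barcode was thinned to 1000 UMIs, which left out 9 of the 122, the shares were 55.0% and 73.5%. Glul and Oat, with log2 ratios of 2.18 (0.56 to 4.49) and 1.46 (0.27 to 2.95), also stood above free RNA there, against only 3 and 6 UMIs in the 20 barcodes. Both calls rested on 2 barcodes described below, without which the log2 ratios were 0.80 (-0.93 to 3.18) and 0.63 (-0.61 to 2.16). All of these ratios use totals that include mitochondrial UMIs. Their median share was 31.5% in the Malat1-rich, 28.1% in the Malat1-poor and 21.0% in the lymphoid and erythroid cell-like control barcodes. Whether Cps1 would still be the only one of the 7 with other totals was not tested.

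In the tetYAP 4W library, the 348 Malat1-rich barcodes stood above free RNA for 9 of the 10 genes, with log2 ratios from 0.53 (0.40 to 0.66) for Ass1 to 1.48 (0.58 to 2.49) for Nags. No share over all genes was computed against free RNA, so this count and those below are not shown to be particular to these genes. Cps1 was at 0.72, Otc at 0.69, Arg1 at 0.68, Glul at 0.67 and Oat at 0.59 (0.38 to 0.80), and for Gls2 the interval included 0 (0.50, -0.04 to 1.06). The 78 Malat1-richest barcodes among them stood above it for 5 of the 10. Cps1 was there at 950 against 373 CPM, a log2 ratio of 1.35 (1.12 to 1.57). The corresponding log2 ratio was 1.14 (0.67 to 1.61) for Asl, argininosuccinate lyase, and 2.0 (0.87 to 3.16) for Nags, which rested on 17 and 13 UMIs. Slc25a15 reached 0.91 (0.20 to 1.59) and Gls2 1.36 (0.69 to 2.03). For Otc, Ass1, Arg1, Glul and Oat the interval included 0 in these 78. In the Malat1-poor tetYAP 4W barcodes none of the 10 genes stood above free RNA in CPM of all UMIs. Ass1, Arg1 and Gls2 stood below it, at -0.30, -0.34 and -0.61. Median mitochondrial shares were 61.0% in these barcodes, 35.6% in the Malat1-rich, 32.7% in the Malat1-richest and 25.4% in the lymphoid and erythroid cell-like ones. A higher mitochondrial share lowers the CPM of all other genes. The ratios to free RNA were not recomputed without mitochondrial UMIs.

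**Figure D1:**
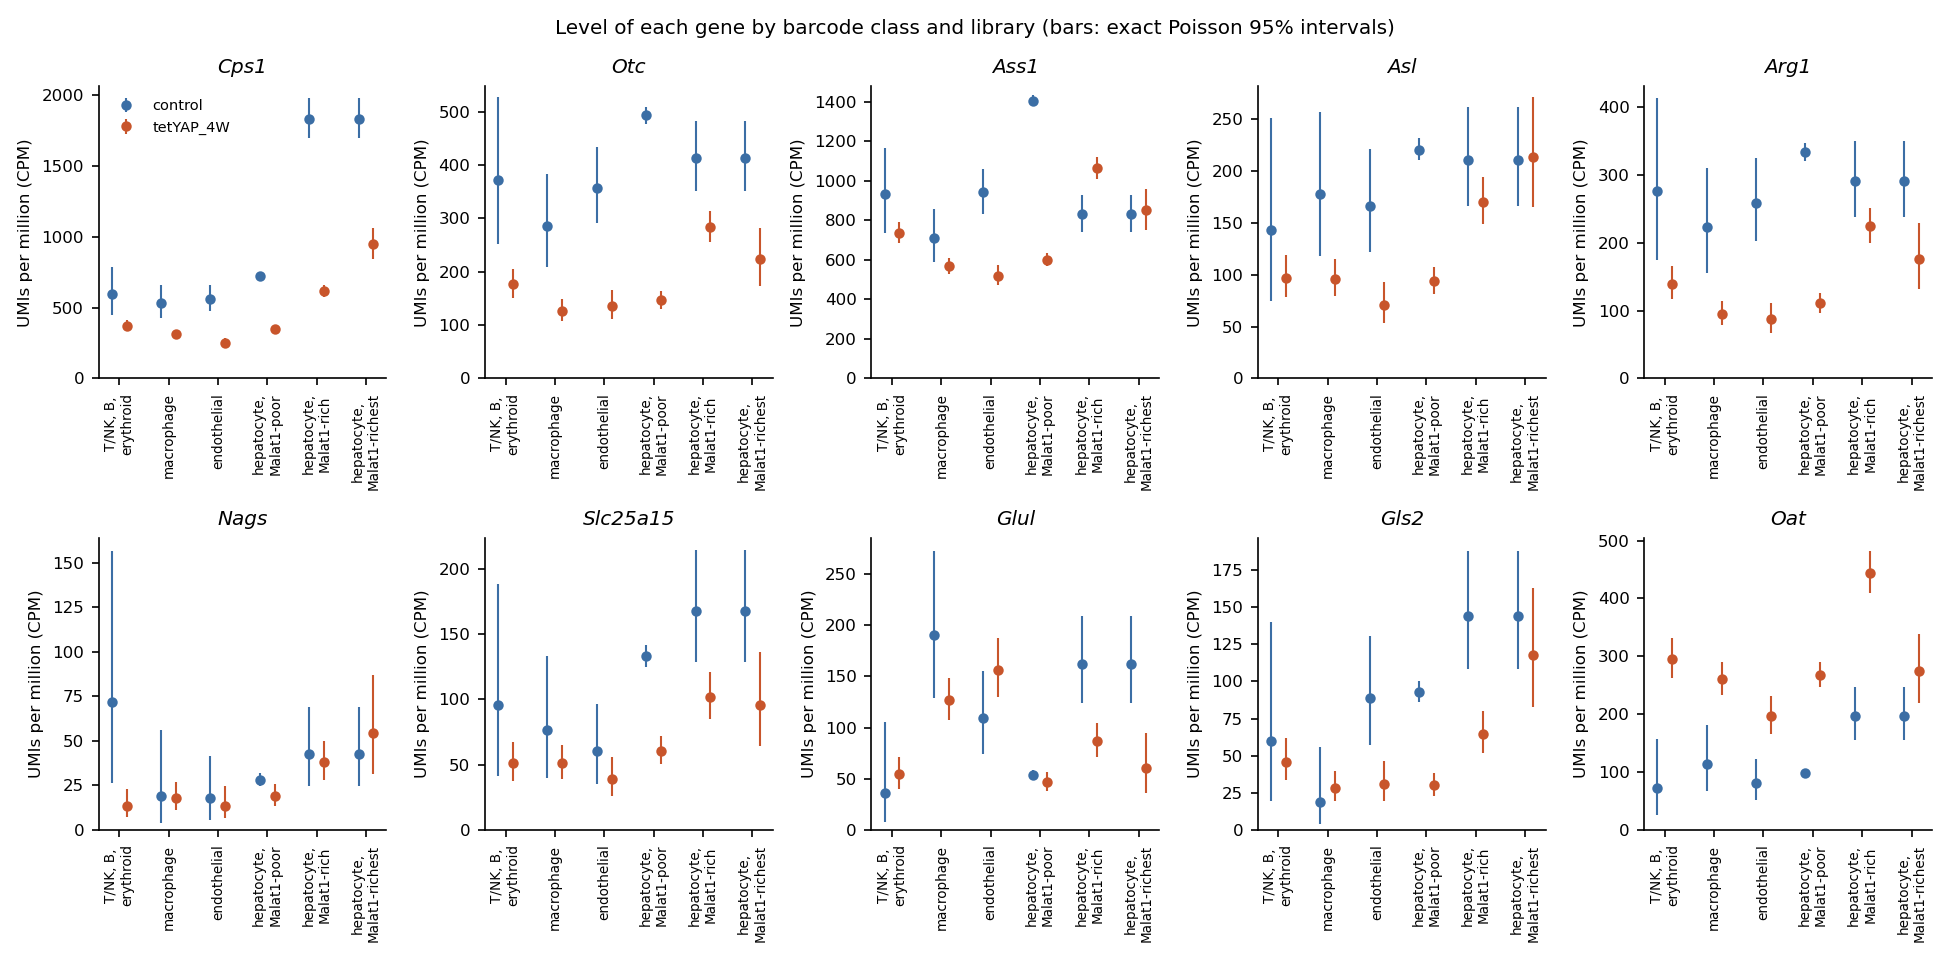
Level of each of the 10 genes in CPM (linear axes from 0, scaled per gene) by class of barcode, with 1 point per library and class and bars for exact Poisson 95% intervals of the UMI sums. Cps1 stands highest in the Malat1-rich control barcodes (1835 CPM), Oat is higher in the tetYAP 4W library in each class, and the Malat1-rich and Malat1-richest control points are the same 122 barcodes.

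In CPM of all UMIs, 6 of the 7 urea cycle genes were lower in hepatocyte-like barcodes of the tetYAP 4W library than in those of the control, and the interval of the other, Nags, included no difference. By the same rule, 3125 of the 10943 genes compared had an interval below 0. Otc, ornithine transcarbamylase, went from 489 to 197 CPM, a log2 ratio of -1.31 (-1.43 to -1.19). Arg1, the arginase that releases urea, went from 332 to 153 CPM, a log2 ratio of -1.12 (-1.25 to -0.98). These were the urea cycle genes lower past 2-fold, 2 of 7, and with Gls2 they made 3 of the 10 genes, while 14% of the 10943 genes compared were lower by as much.

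Cps1 went from 777 to 451 CPM (log2 ratio -0.79, -0.87 to -0.71) and Ass1, argininosuccinate synthase, from 1378 to 774 CPM (-0.83). Asl went from 220 to 123 CPM (-0.85) and Slc25a15 from 135 to 76.2 CPM (-0.82). These 4 genes had nearly the same log2 ratio, from -0.85 to -0.79. Nags was at 28.8 and 26 CPM, a log2 ratio of -0.15 (-0.52 to 0.21).

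Among the genes of glutamine and ornithine, the directions differed. Gls2 went from 95.3 to 43.0 CPM, a log2 ratio of -1.15 (-1.41 to -0.89). Oat went from 102 to 334 CPM, a log2 ratio of 1.71 (1.58 to 1.84), and was the 1 gene of the 10 that was higher past 2-fold, beside 19.6% of all genes compared. Glul was at 58.6 and 61.7 CPM, a log2 ratio of 0.08 (-0.16 to 0.31), so no difference was detectable at this depth.

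Oat and Glul mark the same pericentral cells but differed in their ratio between the libraries, and for this reason the 250 bases before the RefSeq start site of both are printed, in the GRCm38.p6 build and read 5′ to 3′ on the strand of the gene. Oat spans chromosome 7, 132557475 to 132576398, and its window is chr7:132576399-132576648 on the minus strand. Glul spans chromosome 1, 153899929 to 153909723, and its window is chr1:153899679-153899928 on the plus strand. Capitals mark the match described below.
Oat: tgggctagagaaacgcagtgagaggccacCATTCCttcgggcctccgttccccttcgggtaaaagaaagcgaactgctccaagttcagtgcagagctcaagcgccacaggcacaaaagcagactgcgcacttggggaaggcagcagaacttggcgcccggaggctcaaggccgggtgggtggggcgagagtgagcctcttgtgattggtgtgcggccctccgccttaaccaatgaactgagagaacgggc
Glul: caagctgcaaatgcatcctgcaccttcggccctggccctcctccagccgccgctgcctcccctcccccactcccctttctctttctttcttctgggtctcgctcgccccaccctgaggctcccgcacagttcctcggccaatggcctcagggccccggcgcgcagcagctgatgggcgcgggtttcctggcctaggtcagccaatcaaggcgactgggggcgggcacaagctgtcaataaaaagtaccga

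The windows were searched on both strands for GGAATG, the core letters of the TEAD motif to which the partners of YAP bind, and for the letters TTGCNNAA (C/EBP), CAAAGTCCA (HNF4), CTTTGAT (TCF/LEF) and TATAAA (the TATA box). The Oat window holds the TEAD letters once, as CATTCC on the printed strand, beginning 221 bases before the start site. Such letters occur in 12.6% of 32851 windows of this length. The Glul window holds none of the searched letters. Among the 10 genes, 6 had a window in the table, and the Nags window holds the TCF/LEF letters, as ATCAAAG, 204 bases before the start site, as do 3.21% of all windows.

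The median log2 ratio of the 10 genes was -0.83, against -0.09 for all genes compared. Mitochondrial transcripts moved with this value: their median share was 28.2% in control and 55.5% in tetYAP 4W hepatocyte-like barcodes, and with totals that leave them out the median of the 10 genes was -0.22, none of the 10 was lower past 2-fold (Otc -0.71, Gls2 -0.54, Arg1 -0.51), and Nags and Glul were at 0.46 and 0.68. Such totals shift all genes alike, so the median of the 10 genes relative to that of all genes stayed at -0.74. The share of all genes lower past 2-fold was not computed with them. In the 1560 control and 111 tetYAP 4W barcodes with at most 30% mitochondrial UMIs the median was 0.15, beside 0.96 for all genes. Of these, 56 of the 1560 and 110 of the 111 were Malat1-rich, so that limit set mostly Malat1-poor control against Malat1-rich tetYAP 4W barcodes. The part of mitochondrial transcripts in the result was not tested. Oat was higher past 2-fold under each scaling of the totals that was tried.

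**Figure D2:**
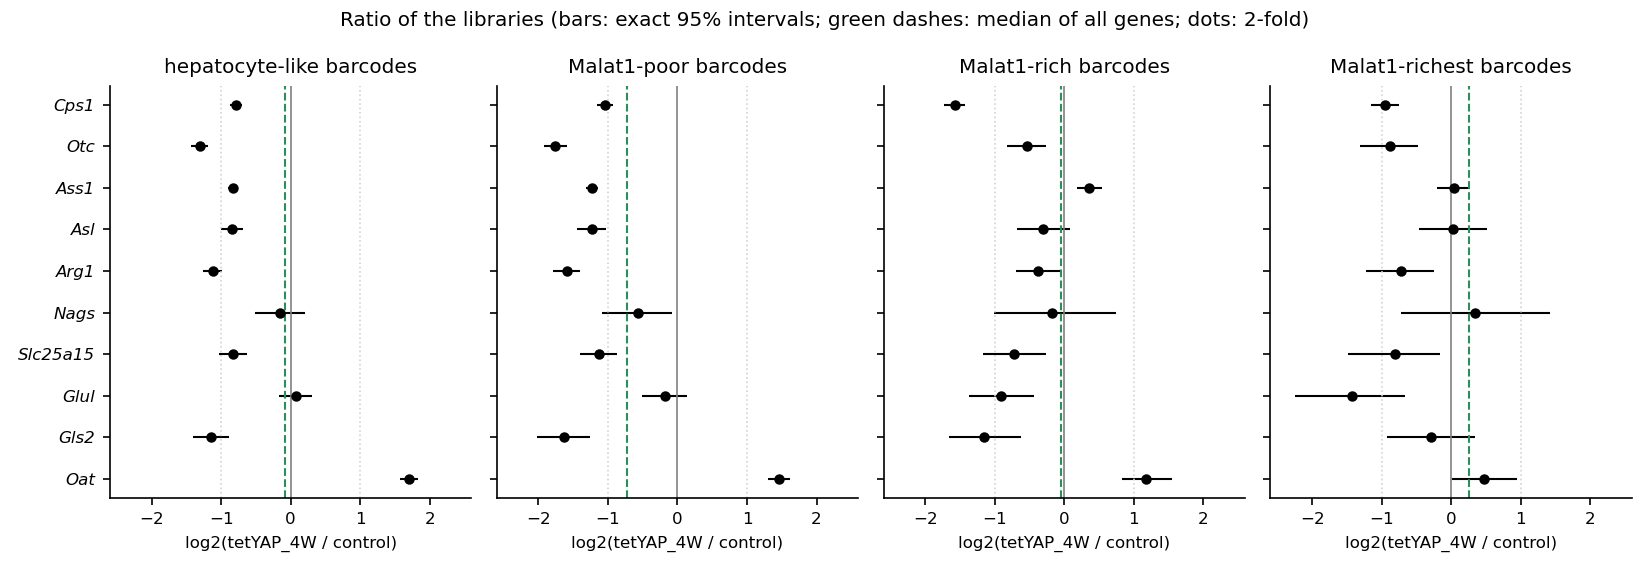
Log2 ratio of tetYAP 4W over control for each gene in hepatocyte-like, Malat1-poor, Malat1-rich and Malat1-richest barcodes, with exact conditional binomial 95% intervals as bars, the median of all genes as a dashed line and 2-fold as dotted lines. Oat lies above 0 in each set (1.71 in hepatocyte-like barcodes), while Ass1 lies below 0 in hepatocyte-like barcodes (-0.83) and above 0 in the Malat1-rich set (0.36).

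The ratios of several genes differed between Malat1-rich and Malat1-poor barcodes. In the Malat1-poor set, 7 of the 10 genes were lower past 2-fold, but so were 38.1% of all genes, and the median over all genes was -0.72. Otc had the lowest of these values, with 493 against 146 CPM and a log2 ratio of -1.76 (-1.93 to -1.59). Oat alone was higher, 1 of 10 beside 9.62% of all genes. The median of the 10 genes was -1.18, and over the 2 libraries as a whole it was -1.01, with 5 of the 10 lower past 2-fold beside 7.89% of all genes and 1 higher beside 38.3%.

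In the Malat1-rich set, Cps1 and Gls2 were lower past 2-fold, 2 of 10 beside 12.8% of all genes, and Oat was higher, 1 of 10 beside 10.8%. Cps1 was at 1835 and 615 CPM, a log2 ratio of -1.58 (-1.73 to -1.43). In the 78 Malat1-richest tetYAP 4W barcodes it was at 950 CPM, which gave -0.95 (-1.15 to -0.75) against the same control barcodes. When hepatocyte-like barcodes were instead chosen by their own Malat1 level (108 and 129 barcodes), it was -0.46 (-0.68 to -0.25). Cps1 was thus lower in the tetYAP 4W library in each of these sets, but whether the difference passed 2-fold depended on how they were drawn.

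Ass1 went the other way in the Malat1-rich set, with 831 CPM in the control and 1066 CPM in the tetYAP 4W library, a log2 ratio of 0.36 (0.18 to 0.54). In the Malat1-richest barcodes it was at 851 CPM, a log2 ratio of 0.03, so no difference was detectable there. In the control, Ass1 was lower in Malat1-rich than in Malat1-poor barcodes, by a log2 ratio of -0.76 (-0.93 to -0.60), whereas Cps1 was higher, by 1.34 (1.22 to 1.45). The enzymes of the cycle therefore did not all differ from the Malat1-poor barcodes in the same direction.

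Otc, Arg1 and Slc25a15 were lower in both Malat1-rich comparisons, without reaching 2-fold. Their log2 ratios were -0.54, -0.37 and -0.72 for the 348 barcodes and -0.89, -0.73 and -0.81 for the 78. Asl was at -0.30 and 0.02. Gls2 was at -1.15 (-1.66 to -0.63) for the 348 and at -0.29 for the 78, where its level was 118 CPM against 144 CPM in the control. Of the 10 genes only Glul was lower past 2-fold against the Malat1-richest barcodes (11.2% of all genes were), and none was higher (22.5% of all genes were). The median of the 10 genes was -0.46 for the 348 and -0.51 for the 78.

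Oat was higher in the tetYAP 4W library in each class of barcodes compared. In the Malat1-rich set it had 197 and 445 CPM, a log2 ratio of 1.17 (0.82 to 1.54), and in the Malat1-richest set 274 CPM, a log2 ratio of 0.48 (0.01 to 0.94). In lymphoid and erythroid cell-like barcodes it had 71.9 CPM (6 UMIs) in the control and 296 CPM (284 UMIs) in the tetYAP 4W library, a log2 ratio of 2.04 (0.90 to 3.50). The macrophage-like and endothelial-like barcodes gave 1.18 (0.50 to 1.96) and 1.27 (0.63 to 1.98). The Oat difference was thus not confined to hepatocyte-like barcodes. Against free RNA of the tetYAP 4W library, Oat was at 0.59 (0.38 to 0.80) in the Malat1-rich and at -0.11 (-0.48 to 0.24) in the Malat1-richest barcodes.

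The lower levels of Otc and Arg1 were likewise found in barcodes of other classes. In lymphoid and erythroid cell-like barcodes, Otc was at 371 and 176 CPM, a log2 ratio of -1.08 (-1.64 to -0.47). Arg1 was at 275 and 140 CPM there, a log2 ratio of -0.98 (-1.63 to -0.27). In endothelial-like barcodes the log2 ratios were -1.39 for Otc and -1.57 for Arg1. Cps1 differed by -0.68 (-1.11 to -0.23) in the lymphoid and erythroid cell-like barcodes.

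Glul stood above free RNA outside hepatocyte-like barcodes as well. Macrophage-like barcodes had 191 CPM (30 UMIs) in the control and 127 CPM (157 UMIs) in the tetYAP 4W library. Endothelial-like barcodes had 110 CPM (31 UMIs) and 157 CPM (117 UMIs). Against lymphoid and erythroid cell-like barcodes the log2 ratio in the tetYAP 4W library was 1.23 (0.77 to 1.71) for macrophage-like and 1.53 (1.05 to 2.03) for endothelial-like barcodes. In the control, against only 3 UMIs, it was 2.41 (0.72 to 4.77) for macrophage-like barcodes. For endothelial-like control barcodes it was 1.61 (-0.07 to 3.97), an interval that included 0. Over all barcodes Glul was at 61.9 and 83.1 CPM, a log2 ratio of 0.42 (0.25 to 0.59), in libraries with 42 and 284 macrophage-like and 60 and 126 endothelial-like barcodes.

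The genes differed in how unevenly they were spread between barcodes. In Malat1-poor control barcodes, the observed variance of the UMIs was 0.95 to 1.17 times that given by counting alone for all 10 genes. In the 122 Malat1-rich control barcodes it was 9.47 times for Glul, 6.93 times for Oat and 3.45 times for Cps1. For the other 7 genes it lay between 0.82 and 1.47 times. Glul, Oat and Cps1 thus stood apart from the other genes in these barcodes, but the spread of Glul and most of that of Oat came from 2 of the 122. Without those 2 the ratio was 0.75 for Glul and 1.76 for Oat, and Cps1 kept 3.32.

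In the tetYAP 4W library the spread differed by gene and set. In the 348 Malat1-rich barcodes the ratio was 2.69 for Oat, 2.58 for Ass1, 1.95 for Cps1 and 1.41 for Glul, and thus for Ass1 it was above the 1.29 of the control. In the 78 Malat1-richest barcodes it was 2.79 for Glul, 2.09 for Cps1, 1.76 for Slc25a15, 1.71 for Ass1 and 1.45 for Oat. In the Malat1-poor barcodes Oat reached 2.06 and Glul 1.61, against 1.17 and 1.06 in the control. Without barcodes of 5 or more Glul UMIs (475 left), these were 1.24 and 1.01, against 1.16 and 1.02 in the control (2421 left).

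**Figure D3:**
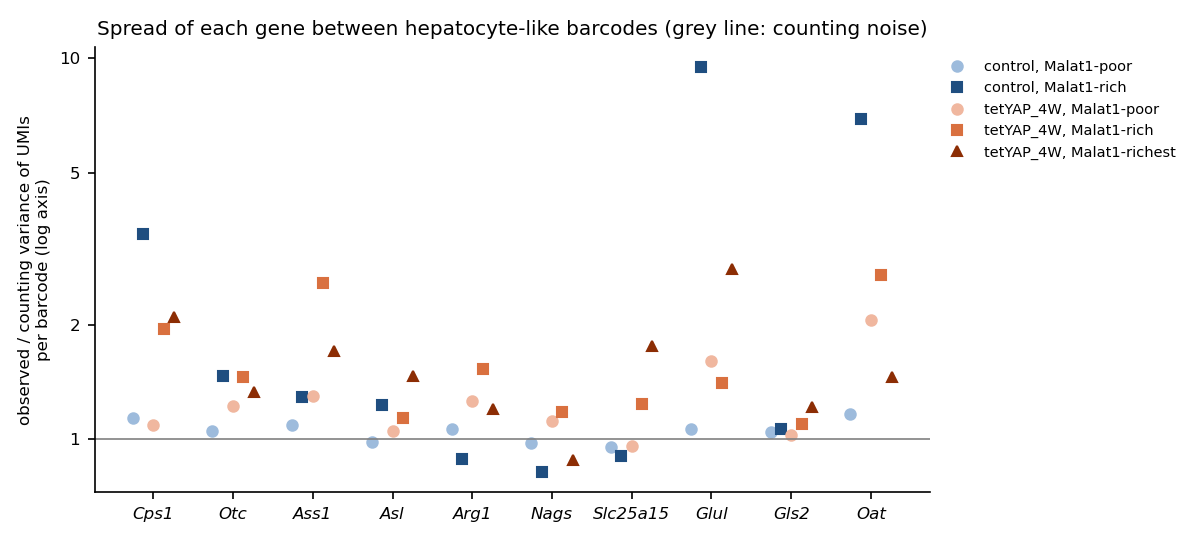
Variance of UMIs between barcodes divided by the variance expected from counting, for each gene and set, on a log axis, with a line at 1. Glul (9.47), Oat (6.93) and Cps1 (3.45) stand apart in the Malat1-rich control barcodes, where 2 barcodes carry most of the spread of Glul and Oat, and Malat1-poor control barcodes lie between 0.95 and 1.17.

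To ask whether the spread followed the axis of the lobule, Malat1-rich barcodes were ordered by the share of pericentral among all zonation landmark UMIs, such as Cyp2e1 for the pericentral and Cyp2f2 for the periportal side. None of the 10 genes served as a landmark. The median control barcode had 17 landmark UMIs, and the 40 barcodes at either end lay below a pericentral share of 31.4% and above 59.1%. The variance of that share was 7.49 times the counting variance in the Malat1-rich control and 2.0 times in the Malat1-rich tetYAP 4W barcodes (2.38 in the Malat1-richest), so the ends were less well separated in the tetYAP 4W library. In Malat1-poor barcodes it was 1.08 and 1.41 times, so that their order held little beyond counting. At their ends, 807 control and 158 tetYAP 4W barcodes each, Cps1 in the control, at -0.13 (-0.22 to -0.03), and Oat in the tetYAP 4W library, at 0.40 (0.11 to 0.69), were the 2 values of the 10 genes with an interval clear of 0. A single Malat1-poor tetYAP 4W barcode, described below, held 25 Oat UMIs. The periportal and pericentral ends had 180 and 234 Oat UMIs and were not recomputed without it.

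At the control ends, Cps1 and Gls2 were higher on the periportal side. Cps1 had 345 UMIs in the 40 periportal and 169 in the 40 pericentral barcodes, a log2 ratio of pericentral over periportal of -0.90 (-1.17 to -0.63). Gls2 had 29 and 9 UMIs, a log2 ratio of -1.55 (-2.82 to -0.44). Over all genes compared, 4.06% had an interval below 0 and 8.39% one above 0.

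Oat and Glul were higher on the pericentral side. Oat had 5 UMIs at the periportal and 59 at the pericentral end, a log2 ratio of 3.69 (2.39 to 5.37). Glul had 8 and 48 UMIs, a log2 ratio of 2.72 (1.63 to 4.01). Slc1a2, a glutamate transporter known from pericentral hepatocytes, had 0 and 10 UMIs, which put it at least 1.87 higher on the log2 scale when the periportal end was set at the floor of 3 UMIs. Of the 10 UMIs, 7 came from a single barcode described below, and without barcodes of 5 or more Glul UMIs the ends had 0 and 3 UMIs, at the floor.

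For the other 6 urea cycle genes the interval included 0. Ass1 had 118 and 81 UMIs (log2 ratio -0.41, -0.84 to 0.01), Otc 62 and 40 (-0.50) and Asl 27 and 17 (-0.53). Arg1 had 28 and 39 UMIs (0.61, -0.13 to 1.37). Slc25a15 had 22 and 24 UMIs and Nags 6 and 8. The median over the 7 urea cycle genes was -0.41 (medians of the members' bounds -1.11 and 0.39), beside 0.13 over all genes. Among the urea cycle genes a periportal excess beyond counting error was thus seen for Cps1 alone, and smaller ones in the rest were not detectable at this depth.

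**Figure D4:**
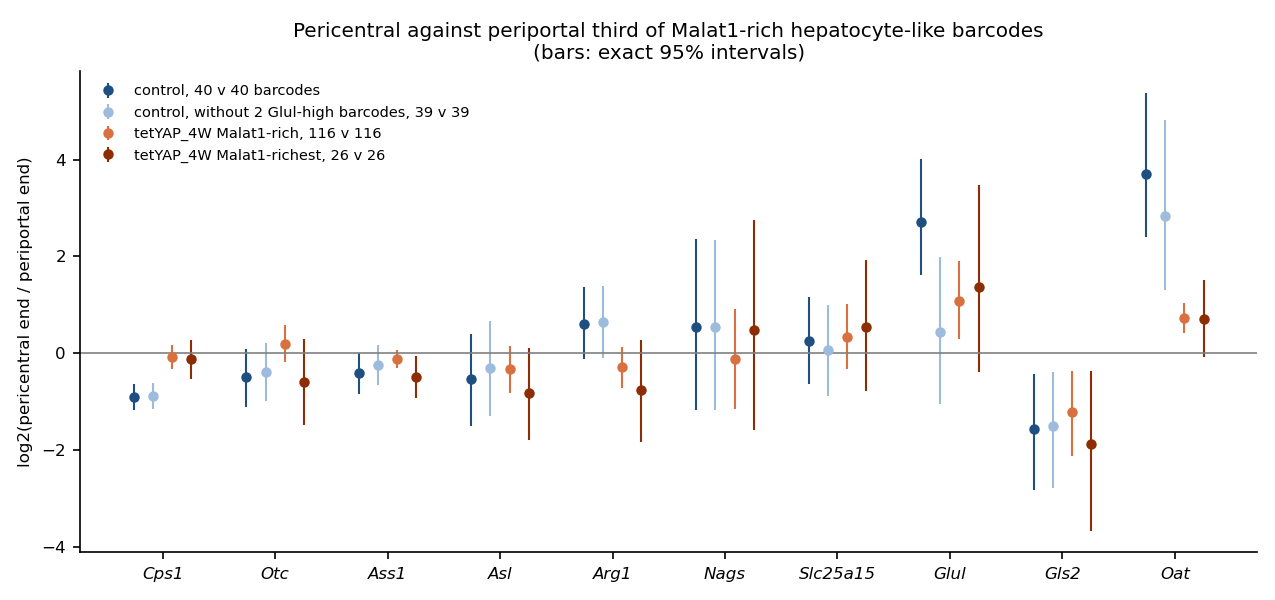
Log2 ratio of the pericentral over the periportal end of Malat1-rich barcodes for each gene, with exact conditional binomial 95% intervals, in the control with and without its 2 barcodes of high Glul and in the Malat1-rich and Malat1-richest tetYAP 4W barcodes. In the control, Oat (3.69) and Glul (2.72) lie above 0 and Cps1 (-0.90) and Gls2 (-1.55) below it, and without the 2 barcodes Glul is at 0.45.

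The pericentral excess of Glul in the control rested on 2 barcodes. They had 26 and 12 Glul UMIs, 38 of the 61 in the Malat1-rich set, and also 19 and 14 Oat, 20 and 13 Cyp2e1 and 7 and 0 Slc1a2 UMIs. Neither had a single UMI of Cps1, Otc, Ass1, Asl, Arg1, Gls2 or Cyp2f2. Their totals were 5301 and 2341 UMIs, and a Cps1 UMI was present in 88.5% of the set.

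Neither of the 2 barcodes had a Malat1 UMI, and they had 26 and 3 UMIs of Alb, the albumin transcript. They were placed in the Malat1-rich cluster by their other genes, and were among 28 barcodes of the 122 that had no Malat1 UMI. Without these 2, which were left out after seeing the data, Glul had 8 and 10 UMIs at the ends, a log2 ratio of 0.45 (-1.04 to 1.99). Oat still had 4 and 26 UMIs, a log2 ratio of 2.83 (1.30 to 4.81), and Cps1 and Gls2 kept -0.88 and -1.51. The Glul excess at the pericentral end was thus lost without these 2 barcodes, while the other 3 differences held. In the 108 control barcodes chosen by their own Malat1 level, which left these 2 out, the log2 ratios were -1.16 (-3.04 to 0.48) for Oat and -0.54 (-2.17 to 1.0) for Glul, and Cps1 alone kept an interval below 0, at -0.86 (-1.24 to -0.48).

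Over all hepatocyte-like barcodes, 3 of 2544 control (0.118%) and 1 of 824 tetYAP 4W barcodes (0.121%) had 5 or more Glul UMIs. The third control barcode had 6 Glul and 4 Oat UMIs. The tetYAP 4W one had 9 Glul, 25 Oat and 218 Alb UMIs, with 1 of Cps1 and 4 of Ass1. The last 2 barcodes were both Malat1-poor. Leaving all 4 out changed the comparison of the libraries for Glul: in the Malat1-rich set the log2 ratio went from -0.91 (-1.37 to -0.44) to 0.47 (-0.19 to 1.18), and in the Malat1-richest set from -1.42 (-2.25 to -0.66) to -0.05. For Oat the same step raised the log2 ratio from 1.17 to 2.0 (1.54 to 2.49) and from 0.48 to 1.30.

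**Figure D5:**
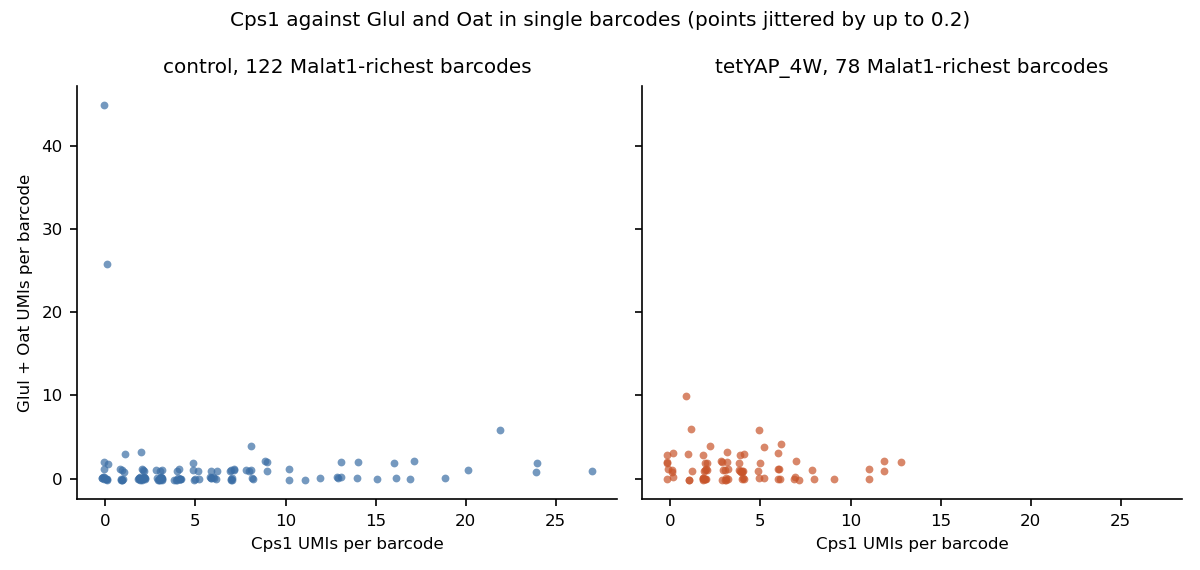
UMIs of Glul and Oat together against UMIs of Cps1 in single barcodes, 1 jittered point per barcode, for the 122 Malat1-rich control barcodes and the 78 Malat1-richest tetYAP 4W barcodes. The 2 control points highest on the vertical axis are the barcodes with 26 and 12 Glul UMIs, and both lie at 0 Cps1 UMIs.

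In the tetYAP 4W library, Oat, Glul and Gls2 differed between the periportal and pericentral ends of 116 Malat1-rich barcodes each in the same direction as in the control, and Cps1 did not differ beyond counting error. Cps1 had 271 and 248 UMIs, a log2 ratio of -0.08 (-0.33 to 0.18). Oat had 143 and 230 UMIs, a log2 ratio of 0.74 (0.43 to 1.05), and Glul 21 and 43, a log2 ratio of 1.08 (0.30 to 1.91). Gls2 had 41 and 17 UMIs, a log2 ratio of -1.22 (-2.13 to -0.37). The ends also differed in Malat1, with 6732 CPM at the periportal and 2981 CPM at the pericentral end (-1.18, -1.27 to -1.08), where the control differed by 0.71 (0.54 to 0.89), and 38 of the 116 periportal but 16 of the 116 pericentral barcodes were of the Malat1-richest set. The part of this unequal make-up in the result was not tested. At these ends 6.36% of all genes had an interval below 0 and 2.88% one above 0.

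In the 26 barcodes at either end of the Malat1-richest set, Cps1 had 105 and 103 UMIs, a log2 ratio of -0.13 (-0.53 to 0.28). The control interval for Cps1 lay below both tetYAP 4W intervals. These hold counting error only, while Cps1 varied between barcodes by 3.45 times counting in the control and by 1.95 and 2.09 times in the tetYAP 4W sets. In the 17 Malat1-rich tetYAP 4W barcodes with at most 2 UMIs of other classes' markers, the Cps1 log2 ratio was -1.68. At the ends of the Malat1-richest set, Gls2 had 17 and 5 UMIs (-1.86, -3.66 to -0.37) and Ass1 102 and 78 UMIs (-0.49, -0.93 to -0.05). Oat had 23 and 40 UMIs (0.70, -0.08 to 1.51) and Glul 4 and 11 (1.36, -0.39 to 3.47). The median over the urea cycle genes was -0.11 for the Malat1-rich and -0.49 for the Malat1-richest set. Since the ends were less well separated here than in the control, the difference between the libraries in these slopes was not tested.

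Barcode by barcode, the genes hardly moved together. After thinning to 1000 UMIs, the 21 pairs of urea cycle genes had a median Spearman correlation of 0.018 (range -0.15 to 0.26) over 113 Malat1-rich control barcodes and of 0.032 (-0.06 to 0.14) over 348 tetYAP 4W ones. Counts this sparse bring any correlation near 0, and all barcodes of a set share 1 library. In the same control barcodes the pericentral and periportal landmark sums correlated at -0.47, Oat with the pericentral sum at 0.37, Glul with Oat at 0.34 and Cps1 with the pericentral sum at -0.23. The corresponding values over the 348 tetYAP 4W barcodes were 0.14 for the landmark sums, 0.16, 0.03 and 0.05, and the landmark sums were at 0.07 over the 78, so the pericentral and periportal landmarks did not oppose each other in that library.

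The genes most alike to Cps1 over the control barcodes were Selenop, Scp2, Cat, Fga and Paqr9, with correlations of 0.38, 0.34, 0.30, 0.29 and 0.29, chosen among 389 genes with a UMI in at least 20% of the barcodes. Over the tetYAP 4W Malat1-rich barcodes the same pairs had -0.18, 0.03, -0.03, 0.06 and 0.05. There the genes most alike to Cps1 were Hspa5, C4b, Apob, Itih3 and Malat1, at 0.15 to 0.19. For Glul they were Arl6ip1, Rps9, Gclc, Rpl41 and Aldh1a1 in the control, at 0.30 to 0.32, and Sod1, Rpl26, Psap, Ptms and Kng2 in the tetYAP 4W library, at 0.11 to 0.15.

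Other genes of nitrogen metabolism were grouped to place these values, each group in hepatocyte-like barcodes and counting genes with at least 10 UMIs, and 19.6% of all genes were higher and 14% lower past 2-fold there. Of 10 genes that supply or serve the urea cycle, none was higher or lower past 2-fold, and their median log2 ratio was -0.35. Got2, the mitochondrial aspartate aminotransferase, had 180 and 95.8 CPM (-0.91, -1.09 to -0.74), and Slc25a13, which exports aspartate from mitochondria, 81.4 and 54.3 CPM (-0.59, -0.83 to -0.35). Sirt3 was at -0.85 and Car5a, the mitochondrial carbonic anhydrase that feeds bicarbonate to Cps1, at -0.83. Arg2, the other arginase, had no UMI in either library.

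Of 17 genes handling glutamate and glutamine, 2 were higher and 2 lower past 2-fold, both shares being below those over all genes, with a median log2 ratio of 0.065. The ammonia channel Rhbg had 9 and 11 UMIs (1.49, 0.08 to 2.94) and Slc1a4, a transporter named here after its value was seen, 8 and 17 UMIs (2.29, 1.0 to 3.71). Slc38a2, which takes up glutamine, was at 29.7 and 52.5 CPM (0.82, 0.54 to 1.11). The lower genes were Gclc and Gclm, the subunits of the enzyme that draws glutamate into glutathione, at -1.62 (-1.83 to -1.43) and -1.19 (-1.38 to -1.02). Glud1, glutamate dehydrogenase, was at 381 and 286 CPM, a log2 ratio of -0.41 (-0.52 to -0.31). Of 8 genes that spend glutamine in synthesis, Ctps and Ctps2, both named after their values were seen, were higher past 2-fold, with 9 and 16 and with 15 and 22 UMIs, and the median was 0.16.

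Among 33 genes of amino acid breakdown, 12 were lower and 0 higher past 2-fold, beside 14% and 19.6% of all genes, with a median log2 ratio of -0.87. Csad, which leads from cysteine to taurine, had 1974 and 57 UMIs, a log2 ratio of -3.91. Tdo2, the first enzyme of tryptophan breakdown, had 7714 and 941 UMIs, a log2 ratio of -1.84. Kmo, a later enzyme of that pathway, was at -1.33, and the list shares Got1 with that of the urea cycle's supply. In the Malat1-richest barcodes 8 of 32 such genes were lower past 2-fold beside 11.2% of all genes, with a median of -0.36 beside 0.25 for all genes, and Csad had 123 and 7 UMIs.

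Of 11 hormonal and nuclear regulators of the cycle, 2 were lower past 2-fold, a share near the 14% of all genes, with a median log2 ratio of -0.64. These were Ppara, at -1.29, and Cebpa, at -1.17, while Cebpb was at -0.79. Of 7 genes read out by beta-catenin at the central vein, 1 was higher and 1 lower, with a median of 0.01. These were Nkd1, with 4 and 9 UMIs, and Lgr5, with 19 and 3 UMIs, both named after their values were seen. Notum, the most abundant of them, was at a log2 ratio of 0.01.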

How the data were processed

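Livers were perfused with EDTA and collagenase, and droplet-based 3′ RNA-seq libraries were made from 1 control and 1 tetYAP 4W sample. The deposited table holds raw UMI counts, whole numbers for each gene in each barcode. According to the labels, reads went through Cell Ranger against mm10 and were analysed in Seurat 3, and the study's methods name a down-sampling of barcodes and the exclusion of the deepest ones.

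All 2989 control and 1524 tetYAP 4W barcodes were used, with no doublet removal beyond that. Counts were scaled to 10000 UMIs per barcode, log-transformed and clustered in scanpy 1.11.5 at Leiden resolution 0.8 (leidenalg 0.10.2; 15 neighbours in 20 components of 2000 variable genes), leaving out the 10 genes and the other nitrogen genes. A cluster of at least 20 barcodes was named for a class other than hepatocytes where at least 3 markers of it were 3-fold above the other barcodes of the library. A cluster without such a class was called hepatocyte-like where at least 3 hepatocyte markers had 10 or more UMIs, with no fold required. UMIs were summed per library and set. Sums carry exact Poisson, shares Clopper-Pearson and log2 ratios exact conditional binomial 95% intervals (SciPy 1.17.1), with a floor of 3 UMIs per set. Genes with at least 10 UMIs gave the background. Intervals and floors cover counting error only. Ratios and intervals were tested on simulated sums drawn with counting error alone. This could not test them against the wider spread between barcodes given above.

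The 10 genes and all lists were chosen with earlier results of these data known, and 1 gene of the glutamate and glutamine list is not reported here. Named beside the 10 genes were, per list, up to 3 genes with the largest ratios among those with at least 100 UMIs, genes needed to read a member, and the 5 genes most alike to Cps1 and to Glul. The edgeR 4.0.16 TMM factors served as a scaling alternative alone. RefSeq on GRCm38.p6, which is the build of mm10, gave gene positions and promoters. Python 3.11.15 and R 4.3.3 were used.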

Additional observations from a re-analysis of the deposited data

How the results depend on the processing

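Of 65 recomputed medians, 51 stayed between the medians of their genes' lower and upper interval bounds, and 4 changed sign. Some of these medians, and of the values of single genes below, could not move. The alternative minimum counts left out none of the 10 genes, and some alternative ends held the same 122 control or 348 tetYAP 4W barcodes. The median of the 10 genes over all barcodes, -1.01, was -0.75 with totals without mitochondrial genes, -0.86 after thinning to 1000 UMIs, and -1.57 with TMM as with median-of-ratios factors. In hepatocyte-like barcodes, -0.83, it was -0.22 with totals without mitochondrial genes, -0.35 also without the 50 most abundant genes, 0.15 with at most 30% mitochondrial UMIs (1560 and 111 barcodes), -1.13 with a class set per barcode (2358 and 76 barcodes), and -1.18 in Malat1-poor barcodes alone, an alternative chosen after seeing the data. Other totals or factors shift all genes alike and leave the distance from the median of all genes unchanged. In Malat1-rich barcodes, -0.46, it was -0.11 after thinning and -0.046 with at most 30% mitochondrial UMIs. The median of the urea cycle genes between tetYAP 4W ends, -0.11, was -0.46 in barcodes rich in Malat1 by themselves, -0.49 at Leiden resolution 0.4 and -0.49 in the Malat1-richest clusters, the last chosen after seeing the data. Of 650 values of single genes, 484 moved by less than their interval, 50 changed sign and 4 of these did so from beyond 2-fold: Gls2 in hepatocyte-like barcodes, to 0.11 with at most 30% mitochondrial UMIs, Glul and Oat at the control ends, to -0.54 and -1.16 in barcodes rich in Malat1 by themselves, and Gls2 at the tetYAP 4W ends, to 0.053 among 17 barcodes with at most 2 UMIs of other classes' markers. The causes were not tested. No paired analysis was possible because each group has 1 library, and for the same reason no replicate could be left out. With 17 landmark UMIs in the median Malat1-rich control barcode and 40 barcodes at each end, depth limits the ends, as does the choice of barcodes.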

Other observations

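Further genes of nitrogen metabolism were compared in the 122 Malat1-rich control and 78 Malat1-richest tetYAP 4W barcodes, where the median over all genes was 0.25 on the log2 scale. Gclm, the regulatory subunit of glutamate-cysteine ligase, was at -1.58, as it was lower past 2-fold in hepatocyte-like barcodes. Prodh, which opens proline breakdown, was at 1.07 and Slc38a3, the main glutamine transporter of periportal hepatocytes, at 0.71. In amino acid breakdown, Gldc and Gcsh of the glycine cleavage system were at -1.86 and -1.63 and Tdo2 at -1.69. Except for Gclm and Tdo2, these genes were named after their values were seen.

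In the Malat1-rich control cluster, 28 of 122 barcodes had no Malat1 UMI, at a median of 1434.5 UMIs per barcode. Their Oat level was 844 CPM and their Glul level 804 CPM, against 98.3 and 64.5 CPM in the 94 barcodes with a Malat1 UMI. Without the 2 barcodes of high Glul, the 26 others were at 214 CPM for Oat and 47.5 CPM for Glul. Cps1 differed less between the 28 and the 94, with 1789 and 1842 CPM.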
